A study of Mus musculus with 24 samples.

Results

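Smyd3 peaks that lie inside regions of H3K4me3 numbered 11301 of the 27324 Smyd3 peaks listed for mouse liver, or 41.4%. A peak was counted when it shared at least 1 bp with any of the 15579 H3K4me3 regions listed for wild-type liver, on mouse build mm9. The other 16023 Smyd3 peaks lay outside those regions. The choice was not tight at its edge, since 5 of the chosen peaks met a region by 1 to 50 bp and 8 other peaks lay within 50 bp of one. The centre of the peak was inside the region for 11036 of the 11301, and 6309 lay wholly inside 1 region.

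The chromatin came from livers of wild-type and Smyd3-knockout mice aged 8.5 months, of the mixed strain given as C57BL6/CBA, which had received a single intraperitoneal injection of 25 mg/kg diethylnitrosamine (DEN). DEN is a hepatotoxic carcinogen widely used to induce hepatocellular carcinoma in mice. The knockout allele is a gene trap inserted in intron 5 of Smyd3 and is present in every tissue, so that any effect on hepatocytes cannot be told apart from effects on other cells of the animal. Smyd3 was immunoprecipitated from DEN-treated wild-type liver with a rabbit antiserum made in-house against the full-length protein. H3K4me3 was immunoprecipitated with a commercial antibody from DEN-treated wild-type liver and DEN-treated knockout liver. Each of these 3 groups had 2 replicates and 1 deposited list, so the lists carry no replicate spread and differences between them were not tested. Libraries for RNA polymerase II and for input were not analysed here. The Smyd3 peaks were compared with no Smyd3 precipitation from knockout chromatin. RNA was sequenced from 3 livers in each of 4 groups of the same strain and age: wild type without treatment (WT), Smyd3 knockout without treatment (KO), wild type after DEN (DEN_WT) and Smyd3 knockout after DEN (DEN_KO). The p-values below measure the spread between these livers.

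H3K4me3 is trimethylation of lysine 4 on histone H3, a mark laid down at the start sites of active genes and at many start sites that are held ready for use. It is written mainly by the SET1 and MLL complexes, removed by KDM5 demethylases and read by general transcription factors and chromatin remodellers. Smyd3 belongs to the SET and MYND domain family of lysine methyltransferases. It has been described both as a methyltransferase for histone H3 and as an enzyme for non-histone substrates, and its MYND domain is a zinc-binding domain of the kind that contacts proteins and DNA. The hexamer CCCTCC has been reported as a binding element of human SMYD3. In a liver, most chromatin comes from hepatocytes, with contributions from cholangiocytes, endothelial, stellate and immune cells.

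The sequences below show what the start sites under these peaks look like at the letters of that reported element. They are 8 genes whose start lay under a chosen peak and whose RNA changed with the knockout after DEN. Gpc3, Cdcp1, Sox4 and Lepr were taken first, from the lists of tumour markers and growth signalling, and the other 4 by the size of their change among genes with a usable promoter entry. Each is the 250 bases before the annotated start, written 5′ to 3′ on the gene's own strand, from RefSeq on GRCm38.p6. That is a later build than the mm9 of the peaks, so the coordinates here and those of the peaks are not interchangeable. Capitals mark CCCTCC, or its reverse complement GGAGGG. The positions are chrX:52613975-52614224 for Gpc3, chr9:123216039-123216288 for Cdcp1, chr13:28953700-28953949 for Sox4, chr4:101717157-101717406 for Lepr, chr9:54286236-54286485 for Gldn, chr9:65101236-65101485 for Igdcc4, chr15:79516158-79516407 for Kdelr3 and chr16:35983330-35983579 for Gm15564. Gpc3, Cdcp1, Sox4 and Gm15564 are on the minus strand and the others on the plus strand.
Gpc3: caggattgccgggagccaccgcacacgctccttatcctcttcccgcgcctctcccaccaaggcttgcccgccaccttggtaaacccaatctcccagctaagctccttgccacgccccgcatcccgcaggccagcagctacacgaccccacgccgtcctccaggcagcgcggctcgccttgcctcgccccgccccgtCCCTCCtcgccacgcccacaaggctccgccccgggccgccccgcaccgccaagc
Cdcp1: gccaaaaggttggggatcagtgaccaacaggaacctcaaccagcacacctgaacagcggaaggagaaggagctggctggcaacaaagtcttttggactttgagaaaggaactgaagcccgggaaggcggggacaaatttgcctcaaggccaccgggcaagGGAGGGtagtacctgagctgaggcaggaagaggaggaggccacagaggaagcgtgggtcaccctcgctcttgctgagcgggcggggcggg
Sox4: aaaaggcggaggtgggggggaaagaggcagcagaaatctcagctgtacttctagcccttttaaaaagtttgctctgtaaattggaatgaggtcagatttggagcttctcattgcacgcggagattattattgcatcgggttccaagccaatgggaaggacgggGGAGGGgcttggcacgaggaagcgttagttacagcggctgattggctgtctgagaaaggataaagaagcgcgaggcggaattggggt
Lepr: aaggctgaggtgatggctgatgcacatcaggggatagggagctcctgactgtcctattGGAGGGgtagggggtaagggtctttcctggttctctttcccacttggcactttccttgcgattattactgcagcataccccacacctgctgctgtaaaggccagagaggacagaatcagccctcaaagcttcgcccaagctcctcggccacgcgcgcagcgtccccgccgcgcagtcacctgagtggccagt
Gldn: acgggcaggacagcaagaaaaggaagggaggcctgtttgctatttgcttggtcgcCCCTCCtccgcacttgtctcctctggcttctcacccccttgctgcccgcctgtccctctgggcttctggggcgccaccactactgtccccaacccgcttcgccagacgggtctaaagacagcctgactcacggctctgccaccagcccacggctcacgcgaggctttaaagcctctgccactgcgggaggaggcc
Igdcc4: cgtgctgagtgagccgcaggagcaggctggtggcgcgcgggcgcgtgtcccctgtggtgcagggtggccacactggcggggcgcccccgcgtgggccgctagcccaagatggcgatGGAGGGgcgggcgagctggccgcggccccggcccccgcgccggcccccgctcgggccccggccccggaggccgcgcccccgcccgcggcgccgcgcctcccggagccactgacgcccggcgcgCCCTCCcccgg
Kdelr3: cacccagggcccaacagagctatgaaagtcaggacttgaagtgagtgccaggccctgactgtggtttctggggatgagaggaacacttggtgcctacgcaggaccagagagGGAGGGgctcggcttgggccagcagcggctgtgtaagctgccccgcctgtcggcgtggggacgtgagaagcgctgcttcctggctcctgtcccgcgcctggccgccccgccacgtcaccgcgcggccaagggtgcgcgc
Gm15564: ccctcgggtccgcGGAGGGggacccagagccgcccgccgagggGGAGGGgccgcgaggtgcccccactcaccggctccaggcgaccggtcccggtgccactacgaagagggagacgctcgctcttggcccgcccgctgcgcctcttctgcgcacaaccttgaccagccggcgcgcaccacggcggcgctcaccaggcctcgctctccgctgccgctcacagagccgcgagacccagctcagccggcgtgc

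The letters were not used to choose the 8. Each held at least 1 match, with 2 in Igdcc4 and Gm15564. The first base of the match lay 54 bases before the start in Gpc3, 90 in Cdcp1, 87 in Sox4, 192 in Lepr, 195 in Gldn, 139 in Kdelr3, 134 and 11 in Igdcc4, and 237 and 207 in Gm15564. The same hexamer, on either strand, was present in the 250 bases before the start of 9341 of 27025 RefSeq promoters, or 34.6%. The 8 are not a sample of all promoters, and nothing is read from their number of matches against that share. The share of G and C in the 8 ran from 50.8% to 84.0%, and the part of base composition in the matches was not tested. A match is a string of letters and not a measured site. The share over all genes with a chosen peak is not given, because only 7911 of 9890 such protein-coding genes (79.99%) could be matched to a promoter in the reference table, under the minimum of 80%. Myc, Ccnd1, F2rl1, Sult4a1 and Lrrc24 had no entry.

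The Smyd3 peaks inside H3K4me3 were mostly at gene starts. The centre of 9199 of them (81.4%) was within 1000 bp of an annotated start, 1488 (13.2%) were elsewhere in a gene and 614 (5.43%) were intergenic. Among the 16023 Smyd3 peaks outside H3K4me3 these shares were 12.5%, 36.8% and 50.7%. H3K4me3 is itself a mark of start sites, so a choice by overlap with it builds in part of this contrast. The peaks inside H3K4me3 were also wider, with a median of 974 bp and a middle range from 772 to 1245 bp, against 655 bp and 512 to 856 bp outside. At gene starts alone the medians were 992 bp inside and 724 bp outside H3K4me3. A wider peak meets a region more readily when any shared base counts, so these differences in width are in part built in. The lists carry no peak height, so width is the only measure of a peak's size.

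**Figure D1:**
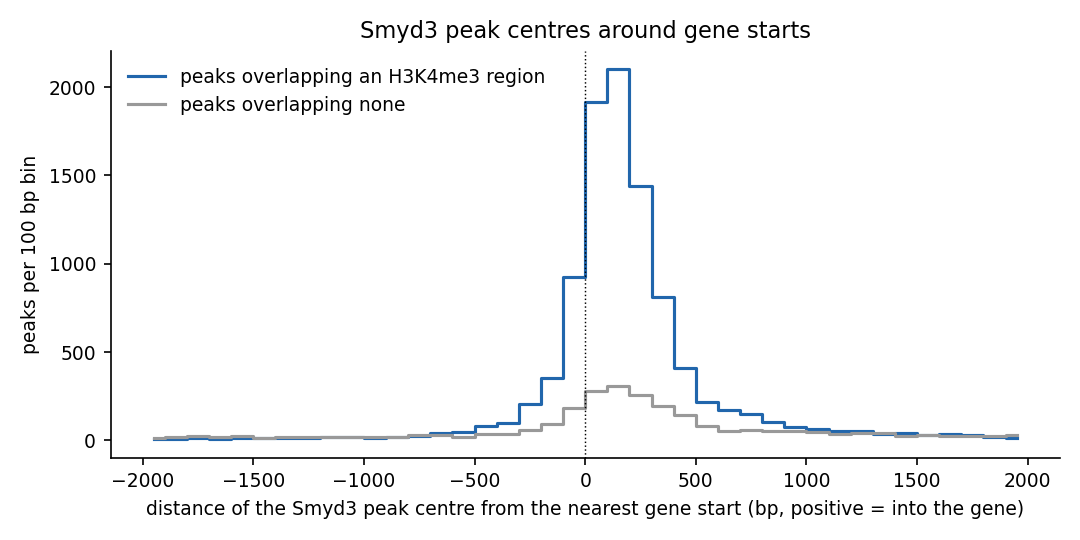
Number of Smyd3 peaks (vertical axis) by the distance in bp from the nearest gene start to the peak centre (horizontal axis, positive values downstream, bins of 100 bp), for peaks inside and outside wild-type H3K4me3 regions. The fullest bin of the peaks inside H3K4me3 runs from 100 to 200 bp downstream and holds 2101 of them, while the peaks outside have 307 there.

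The centres of the peaks lay just downstream of the start, while the peaks themselves mostly covered it. Of the 11120 genes with a chosen peak within 1000 bp of the start, 10003 (90.0%) had the start itself under such a peak. At gene starts the centre was a median of 140 bp downstream, with a middle range from 31 to 268 bp. It was downstream in 80.2% of the 9199 and within 250 bp of the start in 68.0%. The 2009 Smyd3 peaks at starts outside H3K4me3 were less tightly placed, with a median of 164 bp downstream and 51.1% within 250 bp. Starts on both strands were within 1000 bp of 1894 chosen peaks (16.8%), so that a single peak there cannot be given to 1 gene. The distribution of peak centres around gene starts shows the same offset.

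Smyd3 peaks were large relative to the H3K4me3 regions they lay in. Of the 10412 regions with a chosen peak, 9630 held 1, 692 held 2, 74 held 3, 13 held 4 and 3 held 5. In the regions with 1 peak, that peak was a median of 63.1% as wide as the region and covered a median of 58.7% of it, and over 50% of the region was covered in 63.8% of cases. Its centre was in the central 50% of the width in 73.1% of cases. Of all 11301 chosen peaks, 4992 reached past the edge of a region. The regions with 5 Smyd3 peaks covered the starts of Tnrc18 (10158 bp, chr5:143575289-143585446), Zfp36l1 (8248 bp, chr12:81209917-81218164) and Bahcc1 (8220 bp, chr11:120091246-120099465). Zfp36l1 encodes a protein that promotes decay of AU-rich mRNAs. Regions with 4 included those at Setd1b (10414 bp, chr5:123584815-123595228), which encodes a subunit of an H3K4 methyltransferase complex, and at Id2 (8777 bp, chr12:25777348-25786124), an inhibitor of basic helix-loop-helix factors.

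Not all H3K4me3 regions held Smyd3. A Smyd3 peak was present in 10412 of the 15579 wild-type regions (66.8%) and absent from 5167. Regions with Smyd3 had a median width of 1729 bp and those without 873 bp. By quartile of region width, from narrow to wide, the share with Smyd3 was 33.0%, 72.0%, 81.4% and 81.0%. The share was no higher in the widest quartile, from 2272 to 13474 bp, than in the one before it. Any shared base counted, so a wide region meets a peak more readily by the rule itself, and the differences in width are in part built in. Regions that covered a gene start held Smyd3 in 85.1% of 9641 cases, and regions that covered none in 37.1% of 5938. Even in the narrowest quartile, from 169 to 885 bp, these shares were 66.1% and 23.2%.

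The same H3K4me3 regions were looked up in the list from DEN-treated knockout liver, which the choice of peaks had not used. That list was longer, at 17491 regions covering 32.85 Mb against 26.94 Mb in wild type. Regions with Smyd3 in wild type overlapped a knockout region in 95.2% of 10412 cases, and regions without Smyd3 in 68.5% of 5167. The difference was present in each width quartile, at 79.1% against 51.5%, 95.3% against 81.4%, 98.0% against 88.5% and 99.0% against 90.0%. Among regions that covered a gene start it was smaller, at 97.2% with Smyd3 and 92.5% without. In the narrowest of these it was 85.5% against 84.0%. Most regions with Smyd3 in wild type were thus still listed in livers that carry the gene trap.

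**Figure D2:**
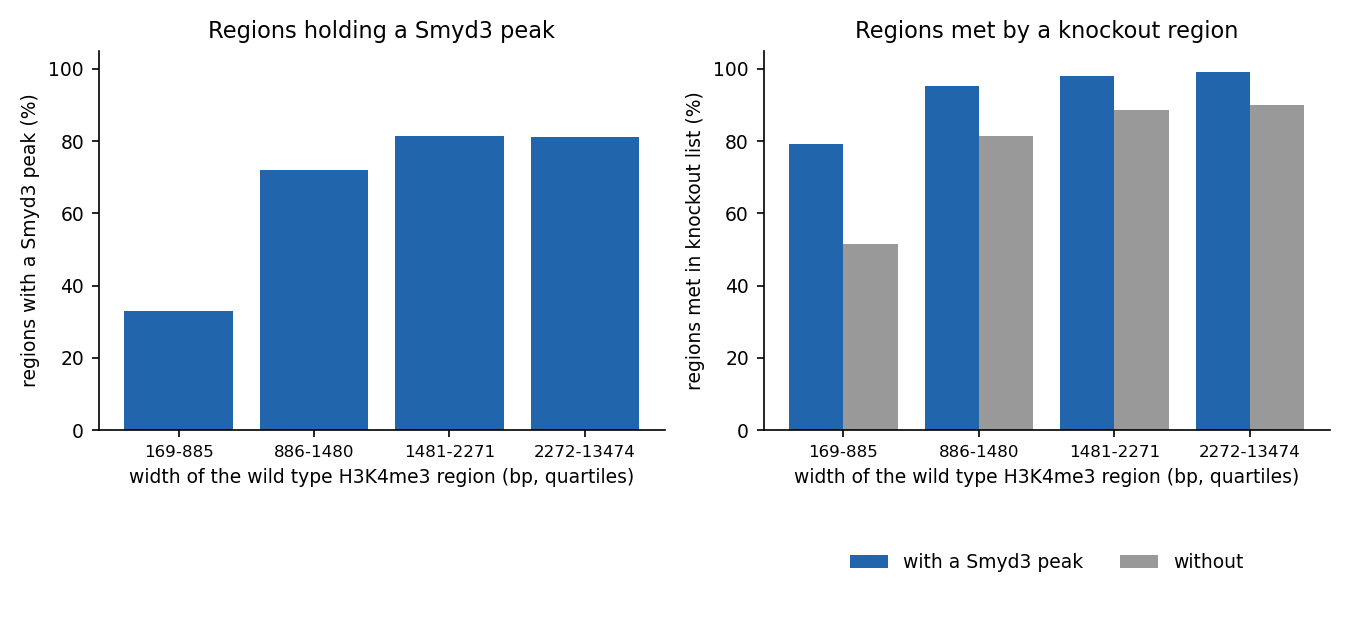
Wild-type H3K4me3 regions by quartile of their width in bp: the percentage that hold a Smyd3 peak, and the percentage also listed in knockout liver for regions with and without a Smyd3 peak. The share holding Smyd3 is 33.0% in the narrowest quartile and 81.0% in the widest, and regions with Smyd3 lie above regions without in every quartile of the knockout panel.

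Regions that paired 1 to 1 between the lists were wider in the knockout by median. The median ratio of knockout to wild-type width was 1.10 for 9767 regions with Smyd3, of which 65.9% were wider in the knockout. It was 1.15 for 3374 regions without Smyd3, of which 64.7% were wider. From the narrowest to the widest quartile the ratio went from 1.32 to 1.02 among regions with Smyd3 and from 1.40 to 0.985 among regions without, of which 46.9% were wider in the knockout in the widest quartile. The quartiles are of the wild-type width, which is also the denominator of the ratio, so a fall across them is in part built in. The depth and calling threshold behind each list are not stated in the sources used here.

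By single peak, 10728 of the 11301 Smyd3 peaks (94.9%) overlapped a knockout H3K4me3 region and 573 (5.07%) did not. The share that did was 96.5% at gene starts, 90.6% in gene bodies and 81.8% in intergenic positions. The 573 were narrower, with a median of 805 bp against 983 bp, and 56.0% of them were at gene starts. A narrower peak meets a region less readily, so this difference in width is in part built in. Absence from the list is a call by the authors' peak caller and not a measured zero.

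Chromosome X was the poorest in these peaks among the chromosomes that held any. On X, 299 of 1244 Smyd3 peaks (24.0%) were inside H3K4me3, and 39.9% of its 669 H3K4me3 regions held a Smyd3 peak. The autosomes ranged from 36.8% to 52.2% of Smyd3 peaks and from 60.1% to 74.8% of regions. On Y, 0 of 17 Smyd3 peaks and 0 of 23 regions qualified.

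The 5 widest peaks had their centres in gene bodies, and some of them also covered the start. At 5601 bp the widest covered the start and first part of Mn1 (chr5:111845249-111850849). A peak of 5299 bp lay in the body of Alb, the albumin gene (chr5:90895353-90900651), with its centre 8087 bp from the start. Brd2, which encodes a bromodomain protein, had 5107 bp (chr17:34255069-34260175). Ahsg, which encodes the plasma protein fetuin-A, had 2 adjoining peaks of 4632 and 4978 bp (chr16:22891914-22896545 and chr16:22896652-22901629). Alb and Ahsg are among the most abundant RNAs of the liver. Of the 50 protein-coding genes with the highest value per kb of gene span in DEN_WT, 9 had over 50% of the span under chosen peaks, against 207 of the 13988 tested. Among these 9 were Apoa1 (100%), Ahsg (98.6%), Sephs2 (89.6%), Ubb (74.6%), Apoa5 (69.3%), Alb (67.5%), Fgg (65.2%) and Lrg1 (57.3%). Apoa1, Apoa5 and Fgg encode secreted products of hepatocytes, and Ubb encodes polyubiquitin. A scale per kb of span ranks short genes high, and a short gene is more readily covered by 1 peak. The share of 9 in 50 is therefore in part built in. Tested protein-coding genes had a median span of 5199 bp in the highest decile of this scale and 97104 bp in the lowest. No input track was analysed here, and the part of highly transcribed chromatin in the width of such peaks was not tested.

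The RNA table gives a normalized count per gene, rounded to whole numbers by the authors, and its 12 columns sum to between 22320634 and 28973396. A gene was said to have a Smyd3 peak in H3K4me3 at its start when any part of a chosen peak was within 1000 bp of the start. That held for 11120 of 37583 genes. Of these, 9798 (88.1%) reached a value of 10 in 3 or more livers and were tested, out of 16471 tested genes in all. Genes with H3K4me3 but no Smyd3 at the start were tested in 80.8% of 2260 cases, genes with Smyd3 but no H3K4me3 in 34.0% of 2281, and genes with neither in 18.6% of 21922. Of tested genes, 67.0% of long intergenic noncoding RNAs, 66.6% of protein-coding genes and 4.14% of pseudogenes had a chosen peak.

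The share of genes with a chosen peak was highest at middle to high levels. Among tested protein-coding genes ranked by value per kb of gene span in DEN_WT, decile 1, the lowest, had a chosen peak at the start in 39.9% of cases, decile 7 in 77.3% and decile 10 in 63.2%. In decile 10, H3K4me3 without a Smyd3 peak was present in a further 22.8%. Gene span includes introns, so this scale understates the level of long genes.

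The chosen peaks were present at most starts of growth and housekeeping genes and at few starts of markers of other cell types. They were also present at the start of 66.6% of all tested protein-coding genes, which is the share to set beside these counts. Lists of genes by role were compared for how many of their members had such a peak at the start. All 15 immediate early genes had one, as had 19 of 20 respiratory chain subunits, 18 of 19 genes of cholesterol synthesis and its control, 22 of 25 growth signalling genes and 21 of 24 cytosolic ribosomal protein genes. Mitosis genes had 15 of 20, DNA replication genes 16 of 20 and PPARA targets 14 of 20. Hepatocyte genes were divided. Transcription factors of hepatocytes had 12 of 18, secreted hepatocyte proteins 7 of 16 and cytochrome P450 genes 2 of 16, and in each of these lists H3K4me3 without Smyd3 accounted for most of the rest (6, 9 and 9 genes). The counts for mitosis genes, PPARA targets and hepatocyte transcription factors were near the share of 66.6%, and no list was tested against it.

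Developmental regulators had 2 of 23, and 17 of them had a Smyd3 peak without H3K4me3. Of 14 macrophage and 15 lymphocyte and neutrophil markers, 0 had a chosen peak, and of 14 stellate, 14 endothelial and 12 cholangiocyte markers there were 1, 3 and 4. Whether such a marker lacks the peak in its own cell type cannot be told apart, in whole liver, from a low number of those cells.

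**Figure D3:**
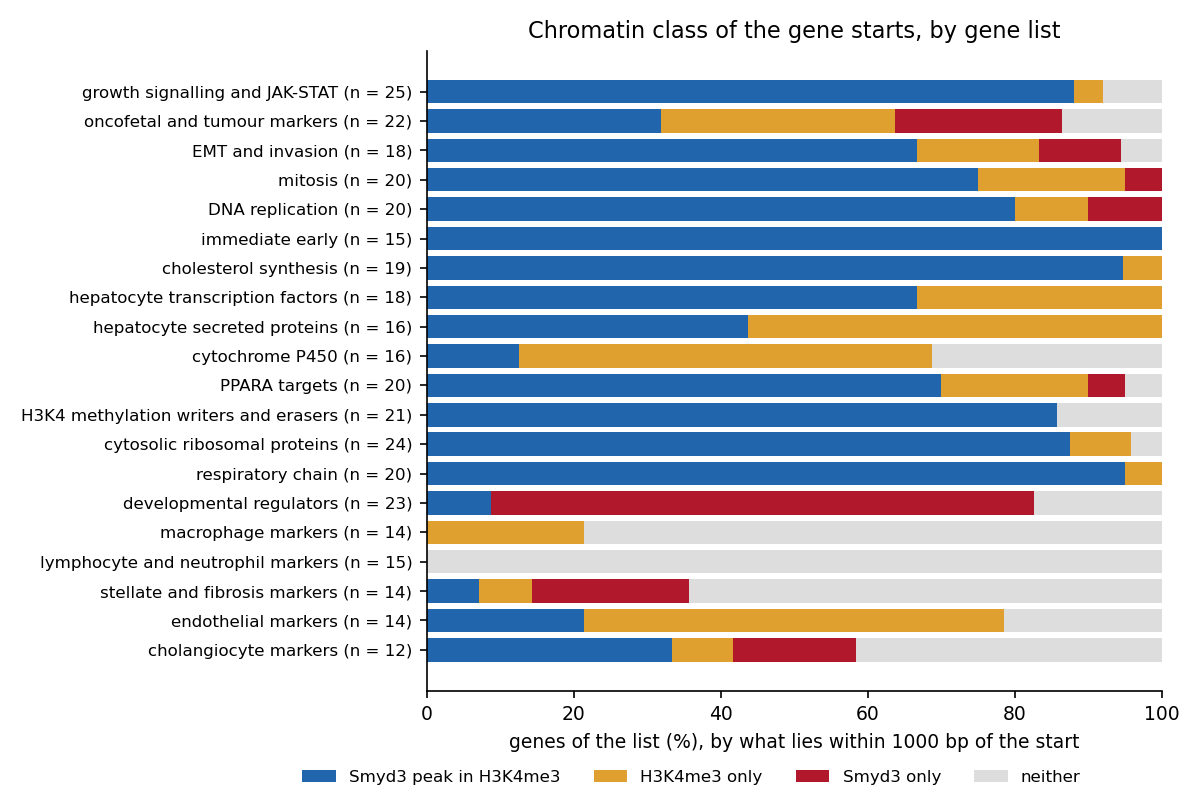
Gene lists (vertical axis) by the percentage of their members in the RNA table (horizontal axis) that have at the start a Smyd3 peak inside H3K4me3, H3K4me3 without Smyd3, Smyd3 without H3K4me3, or neither. Immediate early, respiratory chain and cholesterol genes lie near the full width of the first class, while developmental regulators are mostly Smyd3 without H3K4me3 (17 of 23) and macrophage and lymphocyte markers have 0 in the first class.

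Smyd3 itself carried a chosen peak over its start (chr1:181447733-181448729), and the region was also listed in the knockout. Its values were 79, 89 and 59 in WT livers, 29, 17 and 22 in KO livers, 57, 71 and 74 in DEN_WT livers and 12, 3 and 8 in DEN_KO livers. Every knockout liver was below every wild-type liver. The fall in DEN_KO against DEN_WT was -3.13 ± 0.41 (log2 of value + 1, SE; limma adjusted p = 0.0001821), and KO against WT differed by -1.71 ± 0.41 (adjusted p = 0.06513). The values cover the whole gene and were not divided at the trap. As a check of the tissue, the 16 secreted hepatocyte proteins summed to between 2657174 and 6299240 in every liver, and the 15 lymphocyte and neutrophil markers to between 161 and 433.

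The comparison that matches the chromatin is DEN_KO against DEN_WT. It addresses how the RNA of carcinogen-treated liver differed between the genotypes, and the lists above show which genes carried a Smyd3 peak in wild type. With Smyd3 in H3K4me3 at the start, 3353 of 9798 genes passed an adjusted p of 0.05 (limma), or 34.2%, against 33.9% of all 16471 tested genes. The number of calls was therefore near the background. By direction, 1969 (20.1%) fell and 1384 (14.1%) rose, against 17.4% and 16.4% of all genes. Genes with H3K4me3 alone had 19.7% lower and 17.0% higher, genes with Smyd3 alone 11.1% and 16.3%, and genes with neither 11.2% and 21.8%. The median change was -0.11 for genes with a chosen peak and -0.06 for all tested genes. These shares were not tested against each other, since genes of 1 liver are not replicates.

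The balance of falls and rises moved with the level of the gene. Among genes with a chosen peak, the lowest quartile of tested genes by mean level had 20.1% lower and 8.02% higher, and the highest quartile 18.9% lower and 19.6% higher. All tested genes had 14.8% lower and 12.2% higher in the lowest quartile and 17.1% and 23.1% in the highest. Genes with H3K4me3 but no Smyd3 peak at the start had 25.5% lower and 4.29% higher in the lowest quartile and 13.6% and 32.6% in the highest. In the lowest quartile, a larger share of falls than among all genes was present with H3K4me3 whether or not a Smyd3 peak was listed. A gene of this quartile that passed the filter only through DEN_WT was favoured to fall. Such genes were not counted apart, so these shares are a description. In DEN_WT against WT, 27.5% of this quartile were higher with a chosen peak and 28.5% with H3K4me3 alone.

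DEN_WT against WT shows what the carcinogen did with Smyd3 present. Of the 9798 genes with a chosen peak, 2918 passed, against 29.6% of all tested genes, with 1645 higher and 1273 lower against backgrounds of 16.1% and 13.5%. This comparison and the previous one share the DEN_WT livers, so values of both are given side by side below without a correlation. KO against WT gave few calls. In untreated liver 97 of the 9798 passed, 48 higher and 49 lower, against 1.16% of all tested genes, 0.546% higher and 0.613% lower. At an unadjusted p below 0.05 there were 1440 of the 9798, and 2492 of all 16471 tested genes.

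The oncofetal and tumour markers with a chosen peak were lower in the knockout after DEN. Of the 7 with such a peak, 6 fell and 0 rose, with a median of -2.51, and 5 had risen in DEN_WT against WT. Of the whole list, with or without the peak, 13 of 22 genes fell and 17 had risen with DEN. This and the other lists were chosen with earlier results of these data known, so their counts are a description. Gpc3 encodes glypican 3, a cell-surface proteoglycan of fetal liver and a marker of hepatocellular carcinoma. Its Smyd3 peak covered the start (chrX:49966669-49967511) inside a wild-type H3K4me3 region of 2195 bp (chrX:49965443-49967637), and no knockout region overlapped either. Gpc3 values were 18, 26 and 18 in WT livers, 53, 59 and 18 in KO livers, 2224, 3385 and 2704 in DEN_WT livers and 153, 146 and 113 in DEN_KO livers. The DEN_WT livers stood far above the 3 other groups, and DEN_KO did not overlap any of them. Gpc3 rose by 7.0 ± 0.37 in DEN_WT against WT (limma adjusted p = 2.187e-07) and fell by 4.32 ± 0.37 in DEN_KO against DEN_WT (adjusted p = 2.777e-05).

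Cdcp1, a transmembrane protein phosphorylated by Src family kinases, was lower in knockout than in wild-type liver with and without DEN. Its peak (chr9:123124495-123125303) filled most of a region of 933 bp that had no counterpart in the knockout list. Values were 187, 145 and 178 in WT livers, 10, 24 and 42 in KO livers, 283, 228 and 288 in DEN_WT livers and 22, 14 and 12 in DEN_KO livers. Knockout and wild-type livers did not overlap in either setting, and each DEN_WT liver was above each WT liver. The fall was -4.01 ± 0.41 after DEN (limma adjusted p = 4.616e-05) and -2.90 ± 0.41 without (adjusted p = 0.003534), while DEN_WT against WT gave 0.65 ± 0.41 (adjusted p = 0.254). Cdcp1 was the only one of the 7 to pass in untreated liver.

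Sox4, a transcription factor of the HMG box family, had 2 peaks in a region of 3456 bp, one of them over the start (chr13:29045540-29046088). Its values were 24, 22 and 22 in WT livers, 51, 49 and 21 in KO livers, 158, 180 and 268 in DEN_WT livers and 10, 109 and 34 in DEN_KO livers. DEN_KO lay below DEN_WT in every liver but spread more than 10-fold, and replicate 2 was the highest. The fall was -2.50 ± 0.62 (limma adjusted p = 0.007883). Prom1, a pentaspan membrane protein used as a progenitor marker, fell by 3.41 ± 0.49 (adjusted p = 0.0003103), from 250, 1019 and 374 in DEN_WT to 29, 73 and 35 in DEN_KO. The same DEN_KO replicate 2 was high in Afp, the fetal albumin relative, which has no chosen peak at its start: 308, 5867 and 208 in DEN_KO against 2417, 5067 and 2504 in DEN_WT.

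Among growth signalling genes, 7 of 22 with a chosen peak fell and 0 rose in DEN_KO against DEN_WT, with a median of -0.28. In DEN_WT against WT, 6 rose, and 3 without DEN_WT replicate 1 (4 without WT replicate 2). The shares to set beside the counts of this and the other lists are those of all tested genes. They were 13.5% lower and 16.1% higher in DEN_WT against WT, and 17.4% lower and 16.4% higher in DEN_KO against DEN_WT. Lepr, the leptin receptor, which signals through JAK2 and STAT3, fell most. Its peak covered the start (chr4:101389888-101390822). Lepr values were 31, 35 and 26 in WT livers, 41, 49 and 77 in KO livers, 377, 287 and 336 in DEN_WT livers and 51, 146 and 71 in DEN_KO livers. DEN_KO livers were below all DEN_WT livers, with replicate 2 again the highest, and the fall was -2.02 ± 0.35 (limma adjusted p = 0.0009898). Myc, a transcription factor of growth and ribosome production, fell, at -1.70 ± 0.33 (adjusted p = 0.002064), as did Ccnd1, a G1 cyclin, at -1.60 ± 0.37 (adjusted p = 0.00566). Myc, Ccnd1 and Lepr had risen in DEN_WT against WT by 2.29, 2.66 and 3.40. All 3 regions were also listed in the knockout, that of Myc at 5339 bp against 3952 bp in wild type.

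All 15 mitosis genes with a chosen peak rose in DEN_WT against WT. In DEN_KO against DEN_WT, 11 of the 15 fell and 0 rose, with a median of -1.64. The count of falls was 4 without DEN_WT replicate 2 and 7 without DEN_KO replicate 1 or without DEN_KO replicate 3. Of the whole list, with or without the peak, 20 of 20 genes had risen with DEN and 16 fell in DEN_KO against DEN_WT. Bub1, a kinase of the spindle checkpoint, had values of 2, 3 and 2 in WT livers, 2, 5 and 5 in KO livers, 32, 96 and 24 in DEN_WT livers and 6, 13 and 5 in DEN_KO livers. The DEN_WT livers were above all others, and replicate 2 was the highest of them. Bub1 fell by 2.36 ± 0.57 (limma adjusted p = 0.006939). Plk1 and Ttk, both mitotic kinases, fell, at -2.61 ± 0.67 (adjusted p = 0.008926) and -2.31 ± 0.59 (adjusted p = 0.009056). Without DEN_WT replicate 2 these were -2.06 (adjusted p = 0.05123) and -1.75 (adjusted p = 0.05155). In that liver Plk1 stood at 197, against 54 and 69 in the other DEN_WT livers. Bub1, Plk1 and Ttk reached a value of 10 in fewer than 3 livers outside DEN_WT, so they passed the filter only with that group. For such genes a rise with DEN and a fall in DEN_KO were favoured by the filter. How many of the 15 entered in this way was not counted. Of 16 DNA replication genes 2 fell (Rrm2 and Mcm5) and 1 rose (Pold1), with a median of -0.14. These counts were no higher than the shares of all tested genes (17.4% lower and 16.4% higher). Without DEN_WT replicate 2 the fall of Mcm5 and the rise of Pold1 were both lost, at adjusted p = 0.1602 and 0.05415. Mcm5 was also lost without DEN_WT replicate 1 (0.0736) and without DEN_KO replicates 1, 2 and 3 (0.05221, 0.1053 and 0.09356), and Pold1 without DEN_WT replicate 3 (0.06495), DEN_KO replicate 2 (0.06976) and DEN_KO replicate 3 (0.08701).

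Genes of invasion and of epithelial and mesenchymal identity gave 7 falls and 0 rises among 11 tested with a chosen peak, with a median of -0.74, and 7 had risen and 1 (Cdh2) fallen with DEN. Of the whole list, with or without the peak, 9 of 17 tested genes fell, and 9 had risen and 1 fallen with DEN. Cdh1, the epithelial cadherin, was 574, 297 and 188 in WT livers, 285, 262 and 443 in KO livers, 2522, 3440 and 3544 in DEN_WT livers and 481, 1214 and 643 in DEN_KO livers. It fell by 2.12 ± 0.39 (limma adjusted p = 0.001291), and its H3K4me3 region was 3598 bp in wild type and 1639 bp in the knockout. Vim, the mesenchymal filament vimentin, fell by 1.50 ± 0.28 (adjusted p = 0.001335), with a region of 2547 bp in wild type and 3508 bp in the knockout. An epithelial and a mesenchymal gene both fell, and the widths of their regions differed in opposite directions. Mmp14, a membrane metalloproteinase, and Tgfbr2, a TGF-beta receptor, fell, at -1.87 ± 0.29 (adjusted p = 0.0004481) and -1.71 ± 0.22 (adjusted p = 0.00017).

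Immediate early genes, which respond within minutes to growth factors and stress, gave 6 falls and 1 rise among 15 and a median of -0.92. With DEN alone 13 of the 15 had risen. Btg2, an antiproliferative gene, had values of 182, 193 and 198 in WT livers, 317, 320 and 329 in KO livers, 3228, 3652 and 2590 in DEN_WT livers and 480, 689 and 275 in DEN_KO livers. It fell by 2.79 ± 0.26 (limma adjusted p = 3.571e-05). Egr1, a zinc finger factor, was 3995, 14311 and 5075 in DEN_WT and 395, 659 and 235 in DEN_KO, a change of -4.07 ± 0.73 (adjusted p = 0.001187). The rise was in Nr4a1, an orphan nuclear receptor, from 48, 98 and 54 to 430, 127 and 340 (2.05 ± 0.60, adjusted p = 0.01778). Its call was lost without DEN_KO replicate 1 (adjusted p = 0.07701), DEN_KO replicate 3 (0.06856), DEN_WT replicate 1 (0.05437) or DEN_WT replicate 3 (0.05583).

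Cholesterol synthesis was lower in the knockout after DEN. Of 18 genes with a chosen peak, 13 fell and 1 rose (Acat2), with a median of -0.94, and 11 had risen in DEN_WT against WT. Without DEN_KO replicate 1 no gene of the list rose (11 fell), and without DEN_KO replicate 3 or DEN_WT replicate 2 there were 0 rises and 9 falls. Sqle, squalene epoxidase, was 825, 735 and 1303 in WT livers, 1383, 1133 and 1443 in KO livers, 3588, 4521 and 4256 in DEN_WT livers and 1263, 1486 and 1114 in DEN_KO livers. No DEN_KO liver reached the lowest DEN_WT liver, and the fall was -1.68 ± 0.21 (limma adjusted p = 0.0001317). The H3K4me3 region at Sqle was wider in the knockout, at 5650 bp against 4099 bp. Idi1 and Lss, of the isoprene and sterol cyclisation steps, fell, at -1.55 ± 0.31 and -1.31 ± 0.24 (adjusted p = 0.002409 and 0.001256).

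**Figure D4:**
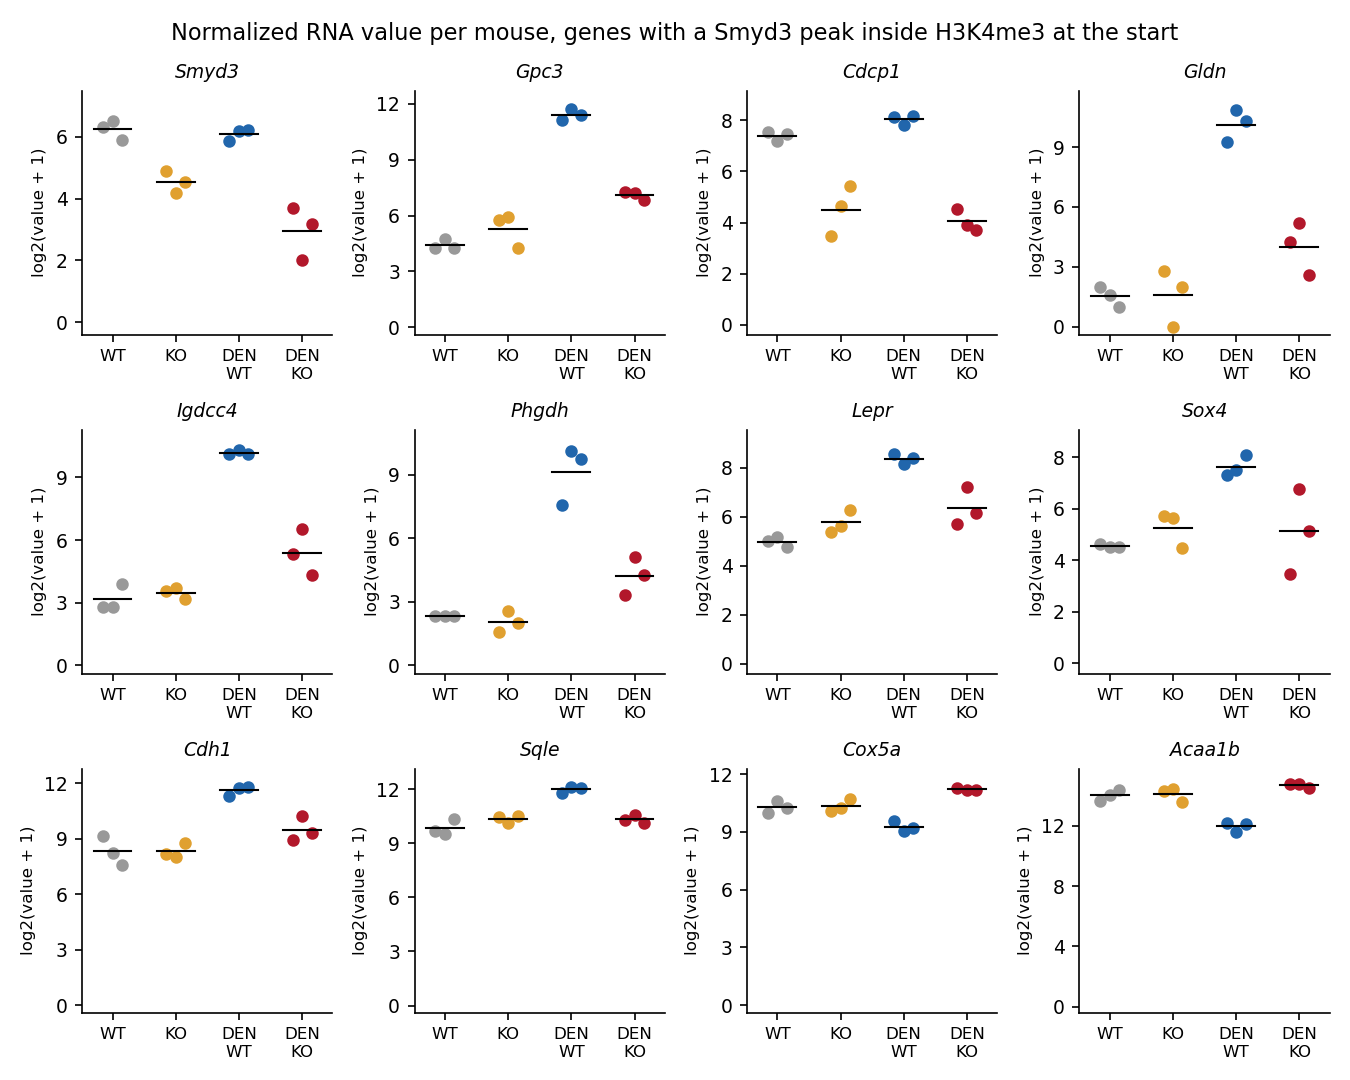
Values in each of the 12 livers (points, as log2 of value + 1) for genes with a Smyd3 peak inside H3K4me3 at the start, by group: WT, KO, DEN_WT and DEN_KO, with a bar at the mean of the 3 livers. Gpc3, Gldn, Igdcc4 and Phgdh are highest in DEN_WT, Cdcp1 is low in both knockout groups, and Acaa1b and Cox5a are highest in DEN_KO.

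Smyd3 peaks in H3K4me3 were also present at genes that rose in the knockout after DEN. Respiratory chain subunits had 18 rises and 0 falls among 19, with a median of 1.10, and 17 of the 19 had fallen in DEN_WT against WT. Cox5a, a subunit of cytochrome c oxidase, was 1009, 1580 and 1225 in WT livers, 1096, 1208 and 1689 in KO livers, 766, 536 and 585 in DEN_WT livers and 2519, 2295 and 2325 in DEN_KO livers. The DEN_KO livers were above every other liver, and the rise was 1.93 ± 0.21 (limma adjusted p = 5.88e-05). Cox5b and Sdhb, of cytochrome c oxidase and succinate dehydrogenase, rose by 1.99 ± 0.24 and 1.41 ± 0.25 (adjusted p = 0.0001174 and 0.0009418). Cytosolic ribosomal proteins had 13 rises and 0 falls among 21, with a median of 0.70 (9 rises and 1 fall under quantile normalization or without DEN_KO replicate 3), led by Rpl11 (1.43 ± 0.33) and Rpl23 (1.13 ± 0.22) with adjusted p of 0.005305 and 0.001908. Processed copies of ribosomal genes share their sequence, and how such reads were counted is not given in the sources used here.

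PPARA targets, genes of fatty acid oxidation, had 8 rises and 0 falls among 14 with a chosen peak, with a median of 0.65. The whole list, with or without the peak, had 11 rises and 0 falls among 20. In DEN_WT against WT 9 of the 14 had fallen, but under quantile normalization 4 fell and 1 rose. Acaa1b, a peroxisomal thiolase, was 12743, 17005 and 21130 in WT livers, 20336, 22432 and 12374 in KO livers, 4599, 3133 and 4436 in DEN_WT livers and 28556, 28206 and 23274 in DEN_KO livers. The 3 DEN_WT livers were the lowest and the 3 DEN_KO livers the highest of all 12. The rise was 2.73 ± 0.26 (limma adjusted p = 3.747e-05). Acaa1b and Acaa1a are close paralogs and their reads may be shared. Cpt2, a carnitine palmitoyltransferase, rose by 1.53 ± 0.20 (adjusted p = 0.0001821).

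Among hepatocyte transcription factors with a chosen peak, 3 of 12 rose (Cebpb, Nr0b2 and Ppara) and 1 fell, with a median of 0.41 that was -0.03 under quantile normalization. Over all tested genes 16.4% rose and 17.4% fell. Cebpb, a factor of the acute phase response, rose by 1.81 ± 0.32 (limma adjusted p = 0.000987), from 1404, 549 and 642 in DEN_WT to 3346, 2248 and 2821 in DEN_KO. The count of falls in that list was 0 without any 1 of DEN_WT replicates 1, 2 and 3 or DEN_KO replicates 1 and 3. Of the 7 secreted proteins with a chosen peak, Ahsg fell and Rbp4 rose, and of the 2 such P450 genes Cyp27a1 rose by 1.22 ± 0.31 (adjusted p = 0.009475). With or without the peak, 4 of 16 secreted proteins rose and 1 fell, and 12 of 16 P450 genes rose and 0 fell. Ahsg was not called without DEN_WT replicate 3 (adjusted p = 0.05452), DEN_KO replicate 1 (0.06862) or DEN_KO replicate 3 (0.09833). Rbp4 was at adjusted p = 0.04769, and leaving out DEN livers 1 at a time gave values from 0.06926 (without DEN_WT replicate 3) to 0.1147 (without DEN_KO replicate 1), all past 0.05.

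Among 18 writers and erasers of H3K4 methylation with a chosen peak, 4 fell (Smyd3, Smyd5, Kdm5b and Kdm1a) and 1 rose (Smyd2), with a median of -0.01 (0.03 under quantile normalization). The falls were near the share of all tested genes, of which 17.4% fell and 16.4% rose. Smyd5, another member of the SMYD family, fell by 1.13 ± 0.18 (limma adjusted p = 0.0005475), from 909, 1270 and 1083 to 438, 601 and 455. The count of falls was 2 without DEN_WT replicate 3 and 3 when any other single DEN liver was left out. Kdm1a, a demethylase, was at -0.48 (adjusted p = 0.02317), and at adjusted p = 0.06825 without DEN_WT replicate 1, 0.06291 without DEN_WT replicate 3 and 0.09083 without DEN_KO replicate 2. The changes of Kdm5b (-0.72 ± 0.23, adjusted p = 0.028) and Smyd2 (0.56 ± 0.20, adjusted p = 0.0481) did not outlast the loss of single livers. Kdm5b was at adjusted p = 0.1068 without DEN_WT replicate 2, 0.05525 without DEN_WT replicate 3, 0.1058 without DEN_KO replicate 1 and 0.05047 without DEN_KO replicate 3. Smyd2 was at 0.29 (adjusted p = 0.2039) without DEN_WT replicate 1, and at 0.1136, 0.07868 and 0.1075 without DEN_KO replicates 1, 2 and 3.

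Markers of other liver cells moved with these comparisons and are given for the whole lists. The 12 cholangiocyte markers summed to 8943 to 17918 in WT, 6258 to 9913 in KO, 32174 to 42707 in DEN_WT and 10291 to 12308 in DEN_KO, and 6 of the 12 fell in DEN_KO against DEN_WT. With a chosen peak among them, Krt8 and Krt18, keratins shared by hepatocytes and bile ducts, fell, at -1.59 ± 0.36 and -0.78 ± 0.17 (limma adjusted p = 0.004492 and 0.004564). Krt8 was 14427, 12083 and 16513 in DEN_WT and 4419, 4499 and 5258 in DEN_KO. Krt18 was 7210, 7994 and 8621 in DEN_WT and 4043, 5445 and 4486 in DEN_KO. These 2 shared keratins made up a large part of the cholangiocyte sums, which therefore do not measure bile duct cells alone. The 14 stellate markers summed to 7648 to 12928 in DEN_WT and 5296 to 6299 in DEN_KO, and 7 of the 14 fell. The 14 macrophage markers summed to 5398 to 15136 and 11625 to 14922, the 14 endothelial markers to 11489 to 12151 and 10319 to 12208, and the 15 lymphocyte and neutrophil markers to 184 to 433 and 312 to 381, all with overlapping groups. Single markers were called in these lists too, with 2 macrophage markers higher and 3 lower, 4 endothelial markers lower and 0 higher, and 1 lymphocyte and neutrophil marker higher and 0 lower. Fewer cells of a type and less RNA per cell cannot be told apart in these bulk livers, and the part of cell composition in the changes above was not tested.

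Genes whose Smyd3 peak had no H3K4me3 region in the knockout were of low level, rose with DEN in wild type and were lower in DEN_KO, by median. There were 354 of them, of which 183 passed the filter on low values and 171 did not. Their median value was between 3.91 and 4.25 (log2) in the 6 untreated livers, 5.43 to 5.59 in DEN_WT and 4.39 to 5.00 in DEN_KO, where genes with a region in the knockout had medians of 8.57 to 8.70 throughout. A low gene that entered only through the group where it was high had to differ, so the following counts are a description. In DEN_KO against DEN_WT, 64 of the 183 (35.0%) fell and 12 (6.56%) rose, with a median of -0.88. In DEN_WT against WT, 76 were higher and 8 lower. Of the 9615 other genes with a chosen peak, 1905 (19.8%) fell and 1372 (14.3%) rose.

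Shares are also given among genes of like level. In the lowest quartile by mean level, 32.5% of 126 genes without a knockout region fell, against 18.7% of 1134 with one. In the next quartile the shares were 44.2% of 43 and 21.9% of 2208. The upper quartiles held only 8 and 6 such genes. Like shares were found where no Smyd3 peak was listed: among genes with H3K4me3 but no Smyd3 peak at the start whose region was not listed in the knockout, 36.2% of 94 fell and 11.7% rose.

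Among the lists, the genes whose chosen peak had no knockout H3K4me3 region were Gpc3, Cdcp1, Cd24a, Cdc20, Egr2 and Lhx2. Further genes of this kind with large falls, set apart after their values were seen, were Gldn, Phgdh, Sult4a1, Apln, Alox5 and Myo5c. Of these, Gldn, Phgdh, Sult4a1 and Apln reached a value of 10 in fewer than 3 livers outside DEN_WT. They passed the filter only with that group, which favoured a fall. Gldn encodes gliomedin, an adhesion protein of peripheral nerve. Gldn values were 3, 2 and 1 in WT livers, 6, 0 and 3 in KO livers, 608, 1821 and 1252 in DEN_WT livers and 18, 36 and 5 in DEN_KO livers. Only the DEN_WT livers were above 36, and the fall was -6.11 ± 0.75 (limma adjusted p = 0.0001298). Its peak (chr9:54134081-54134766) lay in a region of 2599 bp (chr9:54133564-54136162). Phgdh, the first enzyme of serine synthesis, was 186, 1118 and 847 in DEN_WT and 9, 33 and 18 in DEN_KO, with 2 to 5 in the untreated livers, and fell by 4.92 ± 0.61 (adjusted p = 0.0001364). Alox5, which makes leukotrienes and is mostly known from leukocytes, fell by 4.32 ± 0.74 (adjusted p = 0.0009125), from 355, 982 and 647 to 70, 49 and 7.

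**Figure D5:**
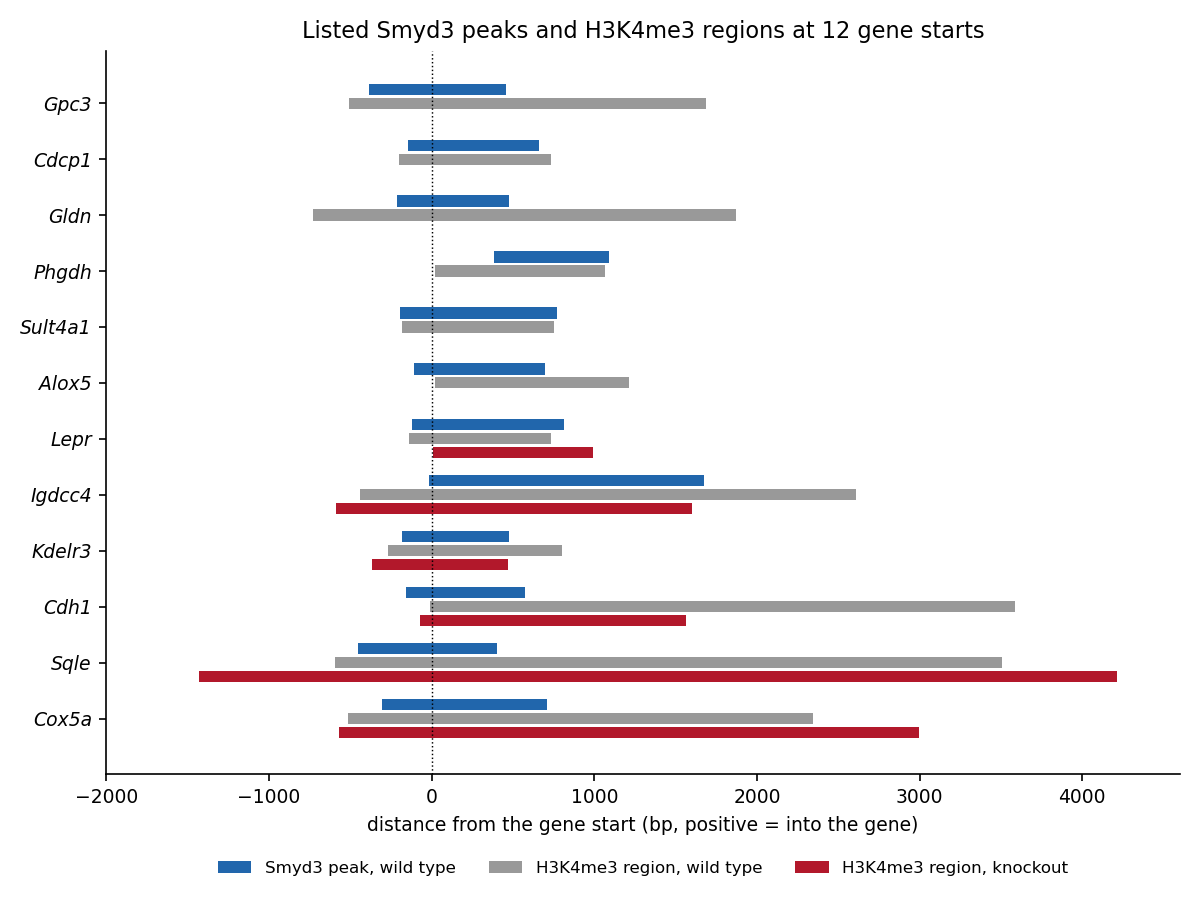
Smyd3 peaks, wild-type H3K4me3 regions and knockout H3K4me3 regions (bars) around the starts of genes named in the text, by distance from the start in bp, downstream to the right. Gpc3, Cdcp1 and Gldn have a Smyd3 peak and a wild-type region with no knockout region, while at Sqle the knockout region is the wider one, 5650 bp against 4099 bp.

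The largest falls of all among genes with a chosen peak, groups not overlapping and a mean of at least 100 in the higher group, were in genes nearly silent without DEN. After Gldn came Sidt1, Phgdh, Igdcc4, F2rl1, Sult4a1, Prnd, Lrrc24, Kdelr3 and Dnaic1, with changes from -5.47 to -4.36. A rank by fold change with a minimum only in the higher group favours genes near 0 elsewhere, so their silence is in part built in. Sidt1 and Prnd reached a value of 10 only in DEN_WT livers and so passed the filter through that group alone. Gldn, Phgdh, Sult4a1 and Kdelr3 reached it in fewer than 3 livers of the other groups, so they too passed only with DEN_WT. The falls of these genes were favoured by the filter. Igdcc4, an immunoglobulin superfamily membrane protein, was 6, 6 and 14 in WT livers, 11, 12 and 8 in KO livers, 1120, 1255 and 1105 in DEN_WT livers and 39, 92 and 19 in DEN_KO livers. DEN_WT livers were alike and more than 10 times any other, and the fall was -4.78 ± 0.47 (limma adjusted p = 3.983e-05). Its peak (chr9:64949275-64950968) was in a region of 3051 bp in wild type and 2190 bp in the knockout. Sidt1, a transmembrane protein related to a worm transporter of double-stranded RNA, went from 176, 265 and 178 to 3, 5 and 3. F2rl1, a protease-activated receptor, went from 317, 413 and 497 to 12, 26 and 8. Kdelr3, a receptor that returns proteins to the endoplasmic reticulum, went from 109, 314 and 164 to 4, 21 and 4. The deposited gene model of Prnd starts 29 bp from the start of its neighbour Prnp, so its peak cannot be given to Prnd alone.

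The largest rises under the same rule were in mmu-mir-2134-2, Gm15564, Gpx1, mmu-mir-2134-1, Usmg5, Mfsd2a, G0s2, Cadm4, Hist1h2bl and Hist1h2bj, from 4.50 to 3.07. Gpx1, glutathione peroxidase, was 22816, 12656 and 11917 in WT livers, 14948, 21240 and 19550 in KO livers, 7089, 3072 and 7708 in DEN_WT livers and 49719, 56506 and 61693 in DEN_KO livers. Its DEN_KO livers were the highest and its DEN_WT livers the lowest, and the rise was 3.34 ± 0.34 (limma adjusted p = 4.588e-05). Its peak of 1525 bp (chr9:108241255-108242779) covered the whole gene. G0s2, an inhibitor of triglyceride lipase, was 718, 7057 and 4125 in DEN_KO against 531, 258 and 240 in DEN_WT (3.10 ± 0.62, adjusted p = 0.0022). The 2 mmu-mir-2134 genes and the 2 histone genes are near-identical copies of other loci and are uncertain, and Gm15564 overlaps Kpna1 on the opposite strand, with use of strand in counting not given in the sources used here.

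Of the 9 genes named above for the widest peaks or the regions with the most peaks, 3 fell and 0 rose. The shares of all tested genes were 17.4% and 16.4%. In DEN_KO against DEN_WT, Zfp36l1 fell by 1.48 ± 0.33 (limma adjusted p = 0.004624), from 4554, 7545 and 6447 to 1644, 2402 and 2595, and Id2 fell by 1.13 ± 0.30 (adjusted p = 0.01175). Id2 was at -0.87 (adjusted p = 0.05513) without DEN_KO replicate 1. Ahsg fell by 1.27 ± 0.40 (adjusted p = 0.02549) and was not called without DEN_WT replicate 3, DEN_KO replicate 1 or DEN_KO replicate 3 (adjusted p = 0.05452, 0.06862 and 0.09833) or under quantile normalization (0.1274). Alb (-1.10 ± 0.80, adjusted p = 0.3087), Brd2 (0.13 ± 0.20), Mn1 (-0.19 ± 0.19), Setd1b (-0.10 ± 0.23), Tnrc18 (0.84 ± 0.34, adjusted p = 0.06751) and Bahcc1 (0.78 ± 0.30, adjusted p = 0.06128) did not pass.

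In untreated liver, 5033411D12Rik had the clearest difference among the genes named here. Its values were 709, 911 and 733 in WT livers, 32, 15 and 39 in KO livers, 120, 64 and 139 in DEN_WT livers and 41, 27 and 21 in DEN_KO livers. KO and DEN_WT livers were both below every WT liver. It fell by 4.82 ± 0.38 in KO against WT (limma adjusted p = 4.171e-05) and by 2.92 ± 0.38 in DEN_WT against WT (adjusted p = 0.0001155). Its peak (chr13:17786104-17787879) lay in a region of 3112 bp in wild type and 3180 bp in the knockout. The deposited model of this gene is long enough to overlap other genes, so the reads may not all be its own. Mn1, at the widest peak, was called higher in KO against WT (1.04 ± 0.19, adjusted p = 0.01764), and this was lost without WT replicate 1 (adjusted p = 0.0501), WT replicate 3 (0.05136), KO replicate 1 (0.06768) or KO replicate 2 (0.1007). Tgfbr2 was called lower in KO against WT (-1.06 ± 0.22, adjusted p = 0.03819), and this was lost without WT replicate 1 (adjusted p = 0.09549), WT replicate 2 (0.1333), KO replicate 1 (0.1322) or KO replicate 2 (0.1118).

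The largest falls with DEN in wild type under the same rule were in 5033411D12Rik, Alas1, Erbb4, Cyp7b1 and G0s2, and the largest rises in Gldn, Igfbp1, Alox5, Igdcc4 and Gpc3. Cyp7b1, of bile acid synthesis, was 18764, 24892 and 16264 in WT and 5170, 1151 and 4724 in DEN_WT, a change of -2.69 ± 0.52 (limma adjusted p = 0.001731). Erbb4, a receptor tyrosine kinase, was 116, 172 and 189 in WT and 27, 16 and 25 in DEN_WT, a change of -2.76 ± 0.56 (adjusted p = 0.002427). Igfbp1, an insulin-like growth factor binding protein made by liver, went from 25, 111 and 208 to 14331, 46712 and 29834, a rise of 8.32 ± 0.81 (adjusted p = 1.336e-05). In DEN_KO it was 7564, 6499 and 1211, a lower level that was no longer called without DEN_WT replicate 2 (adjusted p = 0.07128) or DEN_KO replicate 3 (0.08688). The rule required groups that do not overlap.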

How the data were processed

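Peak lists and RNA values were taken as the authors deposited them, on build mm9. The lists of Smyd3 peaks, wild-type H3K4me3 regions and knockout H3K4me3 regions give coordinates, and the score in every line is 0, per the files. The RNA table holds, per the file headers and labels, normalized counts that the authors rounded to whole numbers (treated here as a score and not as a count), with the deposited G and C fraction of each gene, gene coordinates and Ensembl identifiers. The submitters' processing notes name cutadapt, TopHat2 2.0.9, Cufflinks, Bowtie2 and DESeq. The peak caller, its threshold, the counting of reads, the use of strand and the annotation release were not given in the sources used here.

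Peaks were intersected with bedtools 2.31.1 at a minimum of 1 bp. A peak was placed by its centre within 1000 bp of a gene start, otherwise in a gene, otherwise intergenic. A gene was given a peak when any base of it was within 1000 bp of the start. Since the deposited values are normalized and rounded, the count model planned for raw counts was replaced by limma 3.58.1 (R 4.3.3) on log2(value + 1), with a trended prior, the 4 groups in 1 fit with 8 residual degrees of freedom, and no block. Genes had to reach a value of 10 in 3 or more libraries. The p-values were adjusted over 16471 genes (Benjamini-Hochberg, 0.05, two-sided). A fold change on this scale understates the change of low genes. Scripts were tested on simulated data.

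Named genes were up to 4 called genes per list by size of change; the 10 largest falls and rises in DEN_KO against DEN_WT and the 5 largest in DEN_WT against WT, with groups that do not overlap and a mean of at least 100; and those at the 5 widest peaks and the 5 regions with the most peaks. The members and lists were chosen with earlier results of these data known. Promoters were printed where the span of the RefSeq gene was within 10% of that in the deposited table. Values of some single genes are not reported here, though these genes stay in the counts of their lists.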

Additional observations from a re-analysis of the deposited data

Results flagged for a closer look

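The effect of the knockout differed with and without DEN in 47 of the 76 genes named from the lists or for the largest changes. These passed the limma interaction test at adjusted p from 0.0004787 to 0.04989. The effect also differed in 1577 of the 9798 tested genes with a chosen peak and in 2727 of all 16471 tested genes. The named genes were chosen for large changes in comparisons that enter this test, so their high share was fixed by the choice. Each value here is the knockout effect with DEN minus that without DEN, on the log2 scale. Below 0, so that the level in the knockout was lower relative to wild type with DEN than without, were the membrane, adhesion and metabolic genes Gldn (-6.18), Alox5 (-5.53), Gpc3 (-5.20), Igdcc4 (-5.10), F2rl1 (-5.04), Prnd (-4.91), Phgdh (-4.65), Sidt1 (-4.56), Lrrc24 (-4.45), Sult4a1 (-4.12), Igfbp1 (-4.12) and Kdelr3 (-4.04). The growth, mitosis and immediate early genes among them were Btg2 (-3.54), Sox4 (-3.21), Ttk (-3.01), Bub1 (-2.89), Lepr (-2.82), Prom1 (-2.73), Myc (-2.51), Rrm2 (-2.07), Mcm5 (-1.99) and Ccnd1 (-1.69). The invasion, vessel and cholesterol genes were Mmp14 (-2.24), Sqle (-2.19), Cdh1 (-2.13), Idi1 (-1.37), Lss (-1.32) and Flt1 (-1.02).

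Above 0 were Mfsd2a (4.22), Gm15564 (3.64), Hist1h2bl (3.35), mmu-mir-2134-2 (3.23), G0s2 (3.13), Gpx1 (3.05), 5033411D12Rik (3.02), Alas1 (2.93), Usmg5 (2.92) and Cadm4 (2.78). Genes of fatty acid oxidation, the respiratory chain and hepatocyte control followed with Acaa1b (2.63), Cox5b (2.05), Atp5o (1.99), Acaa1a (1.87), Cox5a (1.87), Cpt2 (1.75), Sdhb (1.64), Cebpb (1.64) and Nr0b2 (1.32). For 5033411D12Rik the knockout was lower both with and without DEN, and the difference between these falls is what the test found. Groups of 3 livers were not tested for single outlying values.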

How the results depend on the processing

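The lists of peaks have no depth or height and no replicates, and 1 liver can decide a count. Counting only Smyd3 peaks wholly inside 1 region left 6309 of the 11301. With no filter on low values, 29.59% of all genes had a chosen peak, against 59.5% of the tested ones. In KO against WT, the 48 higher genes became 29 with no filter and 22 when only the 2 groups were fitted, and the 49 lower genes became 32 under quantile normalization and 18 with 2 groups. Leaving out 1 library gave 14 to 178 higher and 13 to 144 lower there, and the 97 calls became 30 without WT replicate 2, 31 without KO replicate 1, 27 without KO replicate 2 and 322 without KO replicate 3. In DEN_KO against DEN_WT the same gave 976 to 1275 higher and 1338 to 1793 lower, and in DEN_WT against WT 1329 to 1474 higher and 904 to 1207 lower. Rbp4 changed sign in DEN_KO against DEN_WT under quantile normalization, at -0.0272 (adjusted p = 0.9346), and the cause was not tested. Replicate numbers did not pair the livers (correlations of -0.05, 0.12 and 0.03 between same-numbered DEN_KO and DEN_WT livers, of which 1 of 3 was best matched by its own number). With the replicate number as a block, 3161, 2745 and 70 genes with a chosen peak passed in the 3 comparisons, against 3353, 2918 and 97. Of the values recomputed for named genes, 3649 kept direction and side of the threshold, 90 lost it, 31 gained it and 1 changed sign.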

Other observations

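Some genes with a chosen peak and large changes belong to none of the lists. Alas1, the rate-limiting enzyme of heme synthesis, was 45118, 54513 and 24602 in WT livers, 3297, 6702 and 30026 in KO livers, 8832, 3311 and 5217 in DEN_WT livers and 10267, 8653 and 8289 in DEN_KO livers. It fell by 2.88 ± 0.61 in DEN_WT against WT (limma adjusted p = 0.003231), while KO against WT gave -2.17 ± 0.61 (adjusted p = 0.1113), with KO replicate 3 inside the range of WT. The H3K4me3 region at its start was 2920 bp in wild type and 6081 bp in the knockout after DEN. Cadm4, a cell adhesion molecule, was 547, 290 and 332 in WT livers, 569, 480 and 374 in KO livers, 26, 47 and 180 in DEN_WT livers and 488, 445 and 675 in DEN_KO livers, so that the 3 DEN_WT livers lay below all others. Its rise in DEN_KO against DEN_WT was 3.10 ± 0.51 (adjusted p = 0.0006822), with regions of 829 bp in wild type and 683 bp in the knockout.

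Outside wild-type H3K4me3, 853 of the 16023 Smyd3 peaks (5.32%) overlapped an H3K4me3 region of the knockout list. Of the 12 genes with a chosen peak, no knockout H3K4me3 region over it and a called rise in DEN_KO, the 4 with the largest rises among those with groups not overlapping and a mean of at least 100, set apart after their values were seen, were mmu-mir-2134-1, Hist1h2bj, Gm15710 and E130012A19Rik. The model of Gm15710 runs over neighbouring genes, the first pair are multicopy genes, and E130012A19Rik was not called without DEN_KO replicate 3 (adjusted p = 0.08199), so none of the 4 can be read with the certainty of a single-copy gene.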
